A study of Sus scrofa with 79 samples.

Results

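Complement components were measured in the small intestine and blood of piglets with a porcine microarray. The members were the genes C1QA, C1QB, C1QC, C3, C5, C7 and CFB, and a probe was taken for a member where the transcript name of the probe was paired with that gene symbol by RefSeq. Of these 7 genes, 5 had a probe: C1QA, C7 and CFB by 1 probe each, C5 by 2 and C3 by 5, together 10 of the 43603 probes on the array. No probe carried a transcript name paired with C1QB or C1QC, so these are not described. The 5 genes stand among 2389 with a gene symbol and 36787 transcript names in all.

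The series held 79 arrays of 1 colour in 21 groups. Piglets of 16 sows of the TOPIGS20 cross were divided over 3 treatments within each litter and stayed with their own sow. T1 piglets were left undisturbed apart from blood drawing at day 8. T2 piglets received tulathromycin, a macrolide antibiotic, under the skin of the neck at 2.5 mg/kg on day 4. T3 piglets received that injection together with docking, clipping and weighing. Whole blood was sampled at day 8, and jejunum and ileum at days 8, 55 and 176. RNA of 4 piglets was combined into a pool, each array held 1 pool, and each group had 4 pools, except for 5 groups with 3. A pool gives a mean over piglets, and p-values measure the spread between pools. At day 8 the pools of blood, jejunum and ileum with the same number were made from the same grouping of piglets.

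Complement is a set of plasma proteins that cleave each other in a cascade and coat or lyse microbes. C1QA is a chain of C1q, which binds antibody and starts the classical pathway, and in most tissues it is made by macrophages. C3 is the component on which all pathways converge. CFB, factor B, binds to cleaved C3 and forms the convertase of the alternative pathway. C5 is cleaved next and opens the terminal part, in which C7 anchors the lytic complex in the membrane. The liver is the main source of most plasma components, and epithelial, myeloid and stromal cells make some of them locally.

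All values below are log2 signals after quantile normalization of the arrays within a comparison, unless another scale is named. A gene was called changed where its fold change was above 1.5 and its p from limma, adjusted over all genes tested by the method of Benjamini and Hochberg, was below 0.05. For the change of a tissue difference with age, and for treatment effects compared between tissues, the adjusted p alone was used. The shares of all genes called in those comparisons followed the same looser rule. All 10 probes were well above background in every intestinal array, except for the C1QA probe in 1 jejunum array of day 176, and none was saturated. The epithelial marker list (9 genes on the array) summed to between 18.44 and 20.58 in the 67 intestinal arrays set on 1 scale and to between 5.64 and 6.87 in the 12 blood arrays on their own scale. Of the macrophage markers, CD14, CD163, AIF1 and TYROBP were above background in nearly all arrays, whereas SIGLEC1 was so in at most 4 arrays of any tissue and age. Each group lay on 1 slide. At no age did jejunum and ileum of the same treatment share a slide, so within a treatment tissue and slide cannot be told apart. Groups of unlike treatment shared one in jejunum T1 and ileum T3 at day 8, and in jejunum T3 and ileum T1 at day 176. Within the intestine no slide and no scan session held arrays of more than 1 age, so age, slide and scan session cannot be told apart in the comparisons between ages. Jejunum and ileum of day 55 were scanned in separate sessions, and blood in the session of jejunum day 55, where blood T1 also shared the slide of jejunum T3. In tissue RNA, fewer cells of a type and less RNA per cell cannot be told apart either.

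Of the 67 intestinal arrays, 6 stood apart from their own group. In each of these, between 162 and 2233 of the 12430 brightest probes were more than 2 log2 units below every other array of the group, against 0 to 22 probes in the other 61 arrays. They were jejunum day 8 T2 pool 8, ileum day 8 T1 pool 11, jejunum day 55 T1 pool 11 and T2 pool 5, and jejunum day 176 T2 pool 8 and T3 pool 4. The C1QA probe was that far below in 4 of the 6, and 2 of the C3 probes (2 and 5) in 4 and 3 of them. C5 probe 1 was so in 1, whereas C3 probes 1, 3 and 4, C5 probe 2 and CFB were so in none. The C7 probe was not among the brightest probes, so it was not counted. The differences of C1QA and C3 with age and between tissues are therefore given with and without these 6 arrays, a setting chosen after the data were seen.

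**Figure D1:**
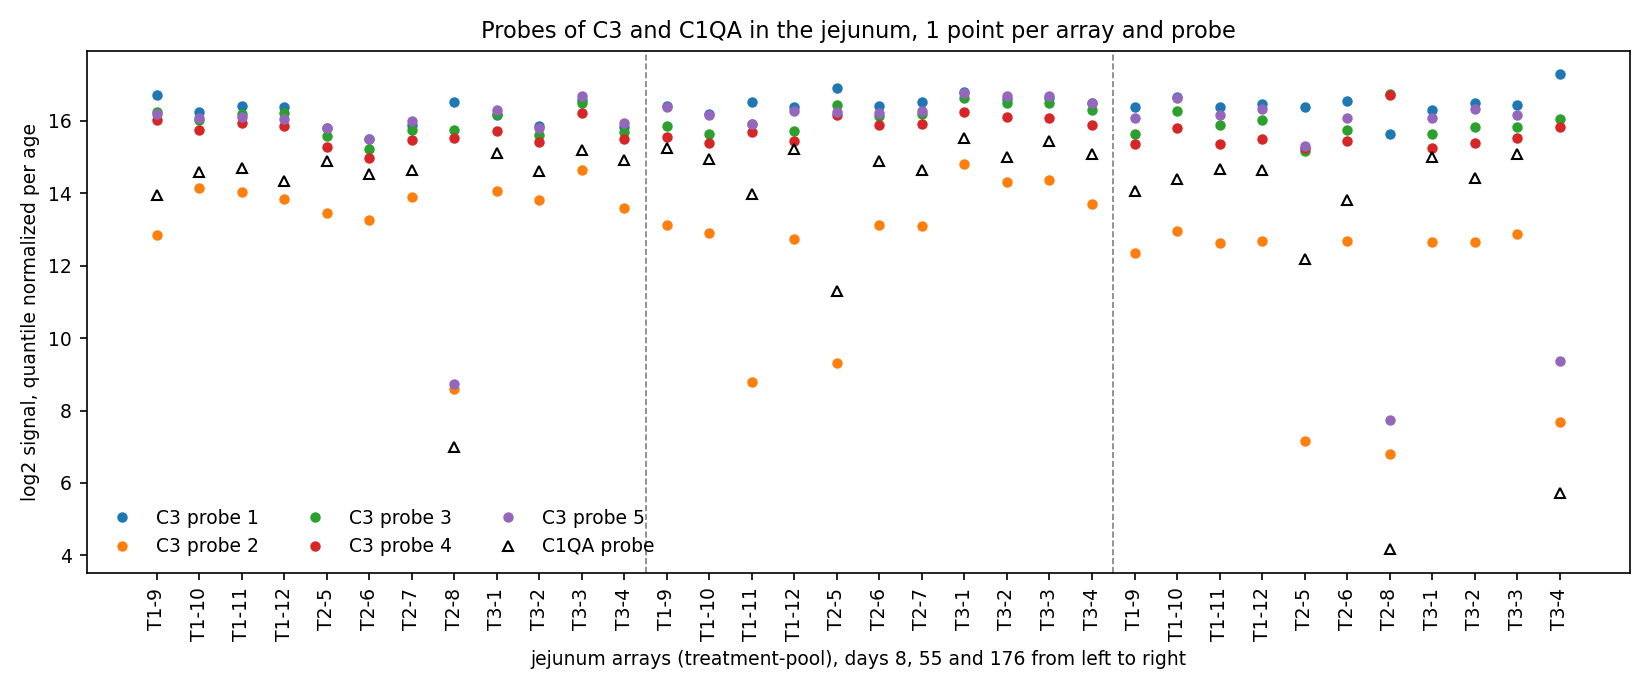
Log2 signal (vertical axis, quantile normalized within each age) of the 5 C3 probes (coloured points) and the C1QA probe (open triangles) in each of the 34 jejunum arrays, with dashed lines between days 8, 55 and 176. C3 probes 1, 3 and 4 stayed between 14.98 and 17.28 in every array, whereas C3 probes 2 and 5 and C1QA dropped together in single arrays such as T2 pool 8 at day 8.

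The plot of probes by array shows how unequal these drops were. In jejunum day 8 T2, C1QA was 14.90, 14.53 and 14.63 in pools 5 to 7 and 6.98 in pool 8. In that pool C3 probe 2 was at 8.60 and probe 5 at 8.73, against 13.26 to 13.90 and 15.50 to 16.00 in the other 3 pools. In jejunum day 176 T2, C1QA was 12.18, 13.81 and 4.17 in pools 5, 6 and 8, and in T3 it was 15.01, 14.41, 15.08 and 5.71 in pools 1 to 4. The same T3 pool 4 had C3 probe 2 at 7.68 and probe 5 at 9.38. The arrays that were low for C1QA were thus also low for at least 1 C3 probe. Pool 5 of jejunum day 176 T2 was not among the 6 arrays, and its C3 probe 2 was at 7.15 against 12.67 in pool 6.

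The largest change of a member with age was that of C5. On the scale set over all 67 intestinal arrays, C5 in jejunum ranged from 10.88 to 12.11 at day 8 with a median of 11.44 (n = 12), and from 13.41 to 13.74 at day 55 with a median of 13.57 (n = 11). In ileum it ranged from 10.87 to 11.91 at day 8 with a median of 11.38 (n = 11), and from 12.28 to 13.35 at day 55 with a median of 12.82 (n = 11). Every array of day 55 was above every array of day 8 in both tissues. C5 rose between days 8 and 55 by 2.14 in jejunum (SE 0.22, 4.39-fold, adjusted p = 7.94e-12 with limma) and by 1.35 in ileum (SE 0.23, 2.54-fold, adjusted p = 1.21e-06). The rise was present within each treatment, at 1.76 in T1, 2.25 in T2 and 2.40 in T3 of the jejunum and at 1.05, 1.56 and 1.43 in the ileum, without overlap between the ages in any of these 6 comparisons. Both probes of C5 rose in both tissues, by 2.32 and 1.95 in jejunum and by 1.32 and 1.37 in ileum. Over all genes tested, 37.1% were called between these ages in jejunum and 47.3% in ileum. C5 was thus 1 member called of 5 in jejunum, and 3 of 5 were called in ileum.

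**Figure D2:**
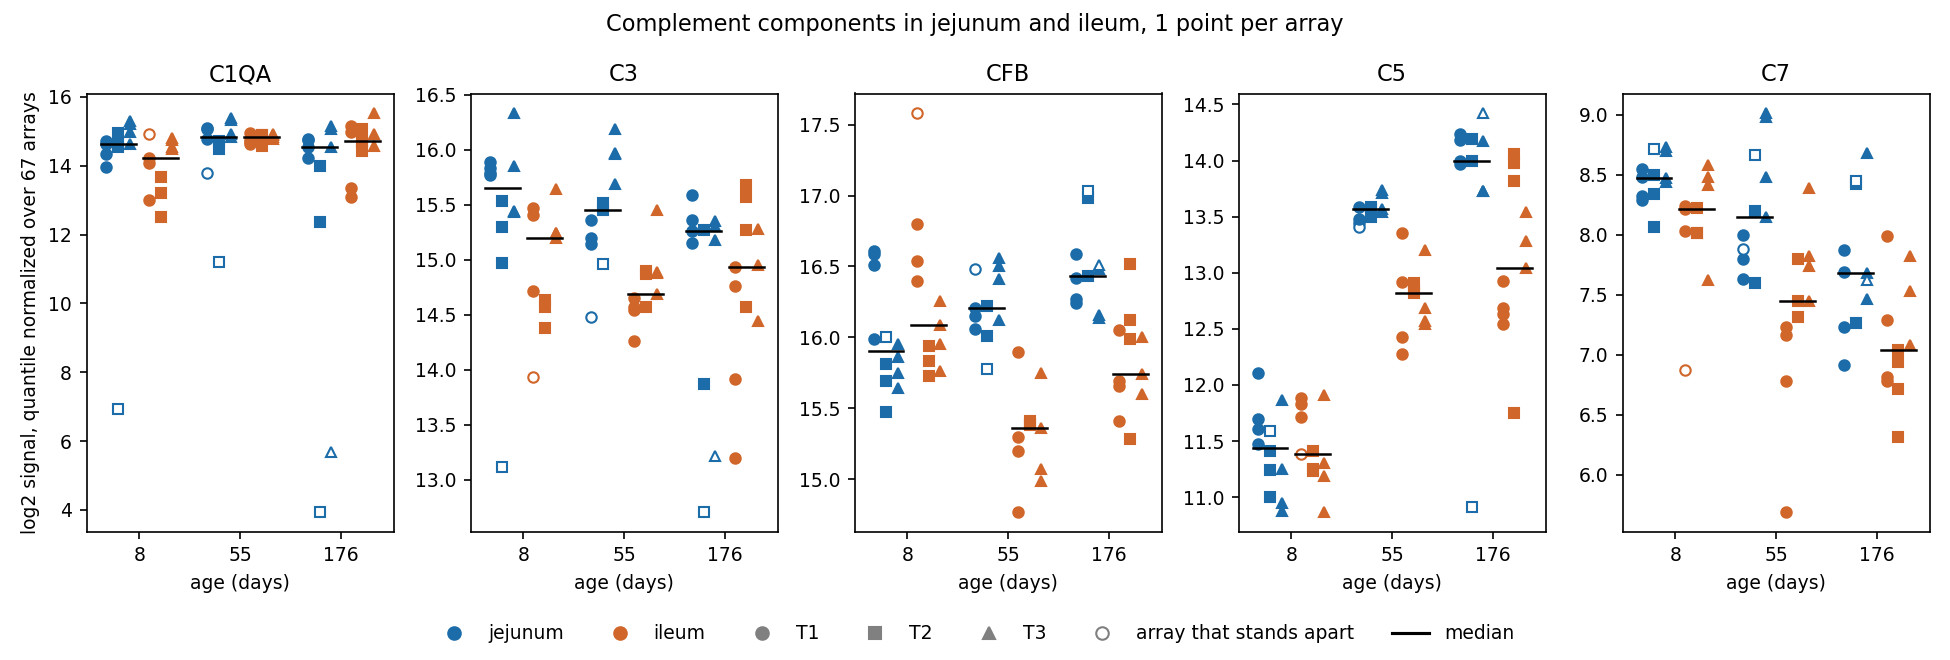
Log2 signal of the 5 complement components (vertical axis, quantile normalized over the 67 intestinal arrays) by age in days, with 1 point per array, blue for jejunum and orange for ileum, shapes for treatments, open symbols for the 6 arrays that stood apart and black lines for medians. C5 at day 55 lay above all day 8 arrays in both tissues, and CFB in ileum had a median of 16.09 at day 8 and 15.36 at day 55.

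The members that fell in the ileum between days 8 and 55 were CFB and C7. CFB ranged from 15.73 to 17.58 at day 8 with a median of 16.09, and from 14.77 to 15.90 at day 55 with a median of 15.36 (n = 11 each). The highest arrays of day 55 overlapped the lowest of day 8. CFB decreased by 0.90 (SE 0.13, 1.86-fold, adjusted p = 6.52e-08), with -1.54 in T1, -0.44 in T2 and -0.72 in T3, and T2 alone was not called (adjusted p = 0.191). C7 ranged from 6.87 to 8.58 at day 8 with a median of 8.21, and from 5.69 to 8.39 at day 55 with a median of 7.45. C7 decreased by 0.70 (SE 0.19, 1.63-fold, adjusted p = 0.00135). With scaling to the 75th percentile the C7 difference was -0.57 (adjusted p = 0.0138), below the fold threshold. In the jejunum, CFB differed by 0.22 (SE 0.13, adjusted p = 0.161), with -0.20 in T1, 0.26 in T2 and 0.60 in T3, of which T3 was called by itself (adjusted p = 0.0372). With scaling to the 75th percentile it was 0.78 (adjusted p = 0.000168) and called. C7 in jejunum differed by -0.25 (SE 0.18, adjusted p = 0.265) between the same ages.

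Marker lists moved between these ages as well. The summed epithelial list in ileum was between 19.97 and 20.34 at day 8 and between 18.83 and 19.62 at day 55, without overlap. In jejunum it was between 20.09 and 20.41 and between 20.22 and 20.58. The T cell list (7 genes tested) in jejunum was between 10.07 and 11.43 at day 8 and between 12.06 and 13.27 at day 55, and in ileum between 10.06 and 11.09 and between 12.78 and 13.65. The neutrophil list (6 genes) in jejunum was between 11.37 and 12.58 and between 12.92 and 13.63, and in ileum between 11.34 and 12.73 and between 12.63 and 13.39. Of these lists, those of T cells in both tissues, of neutrophils in jejunum and of the epithelium in ileum did not overlap between the ages, and their part in the differences of C5, CFB and C7 was not tested.

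C1QA and C3, both bright in the intestine, were not called between days 8 and 55 in either tissue. C1QA differed by 0.35 in jejunum (SE 0.79, adjusted p = 0.738) and by 0.86 in ileum (SE 0.81, adjusted p = 0.374). Without the 6 arrays that stood apart, the ileum difference was 0.94 (adjusted p = 4.59e-05), which was called, and that of the jejunum 0.17 (adjusted p = 0.499). The ileum arrays of C1QA were between 12.52 and 14.92 at day 8 and between 14.57 and 14.94 at day 55, so that the spread was wider at the younger age. C3 differed by less than 0.01 in jejunum (95% interval -0.49 to 0.48) and by -0.16 in ileum (-0.66 to 0.34). Without the arrays that stood apart these were -0.06 (adjusted p = 0.798) and -0.26 (adjusted p = 0.161).

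Between days 55 and 176, 2 of 5 members were called in jejunum, where 36.9% of all genes were, and 0 of 5 in ileum, where 28.3% were. In ileum, CFB had an unadjusted p below 0.05 with limma and the other 4 had not. CFB differed by 0.49 (SE 0.13, adjusted p = 0.00252) and was below the fold threshold, and it was called, at 0.99, with scaling to the 75th percentile. C1QA in jejunum ranged from 11.19 to 15.39 with a median of 14.83 at day 55, and from 3.95 to 15.15 with a median of 14.54 at day 176. C1QA decreased by 1.99 (SE 0.81, adjusted p = 0.0378), and without the arrays that stood apart by 0.67 (adjusted p = 0.00968). The C1QA call was lost when any of 6 arrays was left out, which were jejunum day 55 T1 pools 9 and 12 and T2 pools 6 and 7, and jejunum day 176 T2 pool 8 and T3 pool 4. C3 decreased by 0.75 (SE 0.25, 1.68-fold, adjusted p = 0.0105), and without those arrays by 0.49, below the fold threshold. Its probes disagreed, since probe 5 was lower by -1.75 (adjusted p = 0.0227) and probe 2 by -1.36 (adjusted p = 0.0508), while probes 1, 3 and 4 differed by -0.22, -0.27 and -0.16, none of them called. The C3 call was lost when jejunum day 176 T2 pool 8 or T3 pool 4 was left out. C5 stayed high, with a median of 14.00 in jejunum and 13.04 in ileum at day 176. Its probe 2 in jejunum was higher at day 176 than at day 55 by 0.73 (SE 0.20, adjusted p = 0.00166), while probe 1, which was at 8.20 in T2 pool 8 against 14.90 to 15.74 in the other day 176 arrays, differed by -0.42 (adjusted p = 0.371).

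The comparison of the 2 parts of the small intestine gave no called member at day 8, 4 at day 55 and 2 at day 176, and all called members were lower in ileum. The shares of all genes called were 3.60%, 41.0% and 26.5% at these ages. At day 8 CFB differed by 0.22 (SE 0.12, adjusted p = 0.246), C5 by 0.01 (95% interval -0.27 to 0.30, adjusted p = 0.959), C7 by -0.40 (adjusted p = 0.101) and C3 by -0.48 (adjusted p = 0.178). At this age 7871 of the 28236 genes had an unadjusted p below 0.05 with limma. C3 probes 3 and 4 were lower in ileum by -0.62 and -0.61 (adjusted p = 0.0374 and 0.0452), whereas probes 1, 2 and 5 were not called (-0.40, -0.76 and -0.01). Without the arrays that stood apart C1QA was called lower in ileum, at -0.84 (adjusted p = 0.0108), against -0.11 (adjusted p = 0.93) with all arrays. C3 was then at -0.56 (adjusted p = 0.0153), below the fold threshold, and without jejunum T2 pool 8 alone it was called at -0.66 (adjusted p = 0.026).

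At day 55, C5 was lower in ileum by -0.78 (SE 0.12, adjusted p = 1.51e-05). Its levels were 12.42 to 13.50 in ileum and 13.56 to 13.90 in jejunum (n = 11 each), without overlap. CFB was lower in ileum by -0.79 (SE 0.12, adjusted p = 1.72e-05), with a median of 15.52 against 16.28. C7 was lower by -0.88 (SE 0.19, adjusted p = 0.000727), with a median of 7.50 against 8.22, and C3 by -0.63 (SE 0.12, adjusted p = 0.000283), with a median of 14.84 against 15.55. Without the arrays that stood apart C3 was at -0.74 (adjusted p = 1.64e-05). The arrays of CFB, C7 and C3 overlapped between the tissues. Of the C3 probes, 1, 3 and 4 were called lower (-0.85, -0.93 and -0.76), probe 5 was lower by -0.51, below the fold threshold, and probe 2 differed by -0.08 (adjusted p = 0.905). C1QA, with a median of 15.01 in ileum and 14.99 in jejunum, differed by 0.39 (adjusted p = 0.291), by -0.09 without the arrays that stood apart and by -0.19 with scaling to the 75th percentile.

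The tissues differed in more than complement at this age. The summed epithelial list was between 18.96 and 19.63 in ileum and between 20.22 and 20.51 in jejunum, and the macrophage list between 15.91 and 16.63 and between 16.83 and 17.61, both without overlap. The ileum T3 arrays, alone on their slide, had 42.4% to 52.0% of spots well above background, against 62.6% to 73.1% in the other ileum arrays of day 55. Scaling to the 75th percentile moved the median of all genes by 0.37 in this comparison. Relative to the median gene, CFB was then at -1.89 in place of -0.83, C5 at -1.61 in place of -0.81, C3 at -1.65 in place of -0.66 and C7 at -1.05 in place of -0.92. No jejunum and ileum group of day 55 shared a slide or a scan session, so tissue, slide and scan session cannot be told apart at this age.

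**Figure D3:**
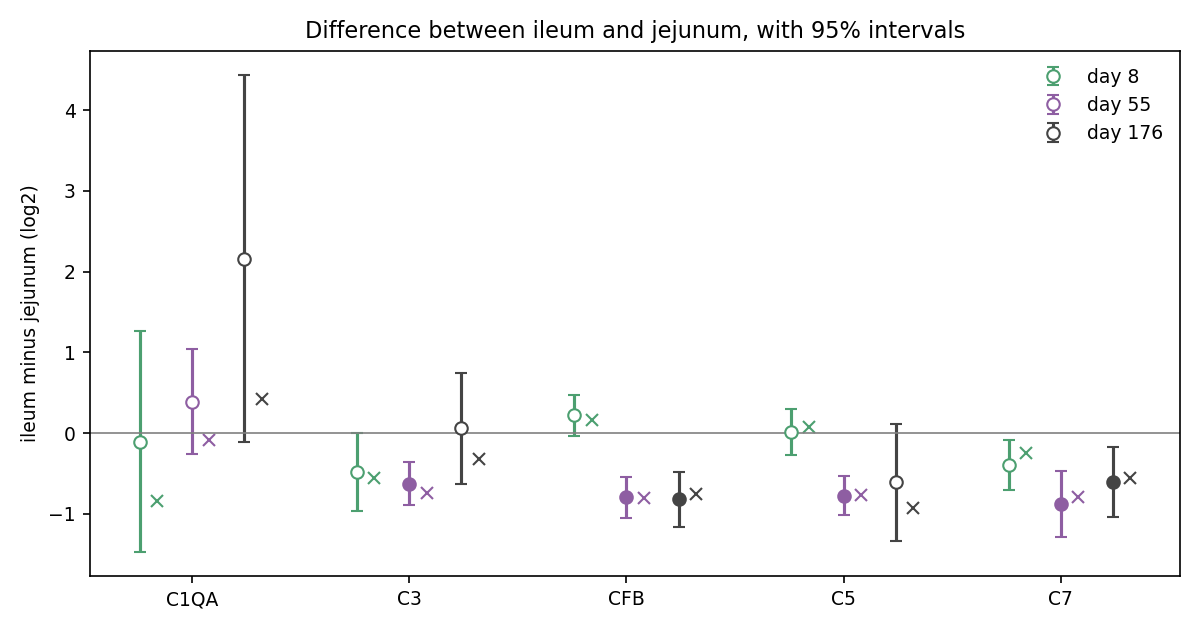
Log2 difference between ileum and jejunum (vertical axis) for the 5 components at days 8, 55 and 176, with 95% intervals, filled circles where the gene was called and crosses for the value without the arrays that stood apart. CFB, C5 and C7 were at or above -0.40 at day 8 and between -0.60 and -0.88 at days 55 and 176, and the widest intervals were those of C1QA.

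At day 176, CFB was lower in ileum by -0.82 (SE 0.16, adjusted p = 0.000691), with a range of 15.24 to 16.71 and a median of 15.78 against 16.27 to 17.31 and a median of 16.60 in jejunum. C7 was lower by -0.60 (SE 0.21, adjusted p = 0.029), with a median of 6.94 against 7.56. The ranges overlapped for both genes. Without the arrays that stood apart C7 was at -0.56 (adjusted p = 0.0516), and its call was lost without any of ileum T1 pools 10 and 11, T2 pool 6 and T3 pool 2, or jejunum T1 pools 11 and 12, T2 pools 5 and 8 and T3 pool 3. With 1 treatment effect for both tissues, a model chosen after the data were seen, CFB remained called at -0.82, and C7 was at -0.58 (adjusted p = 0.047), below the fold threshold. Slide was then added as a block to that model, where the tissue difference rests on ileum T1 and jejunum T3. These shared a slide but differed in treatment. With this block the differences were -0.46 for CFB (SE 0.49, adjusted p = 0.643) and 0.68 for C7 (SE 0.62, adjusted p = 0.586), and neither was called. C5 differed by -0.61 (SE 0.35, adjusted p = 0.182), and by -0.93 (adjusted p = 0.00619) without the arrays that stood apart. Its probe 2 was called at -1.20 (SE 0.25, adjusted p = 0.00104) and probe 1 differed by -0.02 (adjusted p = 0.983). C3 differed by 0.06 (adjusted p = 0.907), and by -0.32 (adjusted p = 0.354) without the arrays that stood apart, so that its direction turned. Its probes 3 and 4 were called at -0.66 and -0.67, and probe 5 was at 1.15 (adjusted p = 0.337). C1QA differed by 2.16 (SE 1.09, adjusted p = 0.132), and by 0.42 (adjusted p = 0.284) without them. The epithelial list was between 18.56 and 19.12 in ileum and between 19.65 and 20.57 in jejunum.

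The change of the tissue difference with age was tested itself. At day 55 the tissues lay on separate slides and in separate scan sessions, so these changes cannot be told apart from slide and session. The difference between ileum and jejunum moved between days 8 and 55 by -1.12 for CFB (SE 0.18, adjusted p = 2.88e-06) and by -0.79 for C5 (SE 0.32, adjusted p = 0.0431), and these 2 of 5 members were called where 38.1% of all genes were. For CFB this joined an ileum level that fell with a jejunum level that differed by 0.22. For C5 both tissues rose, and the jejunum rose further. The C5 call was kept in 43 of 67 runs that each left out 1 array, and neither of its probes passed alone (adjusted p = 0.138 for probe 1, and 0.0855 for probe 2, which differed by -0.58). Between days 55 and 176 none of the 5 was called with limma, against 33.8% of all genes, and none had an unadjusted p below 0.05 except C3, at 0.79 (SE 0.35, adjusted p = 0.0763). This C3 change was called with scaling to the 75th percentile at 1.34, with the brightest probe at 0.75, with array weights at 0.65 and in 3 of 67 runs that left out 1 array. These left out jejunum day 8 T2 pool 8, ileum day 176 T1 pool 11 or jejunum day 176 T2 pool 6. Without the arrays that stood apart it was 0.52 (adjusted p = 0.0875), and that of C1QA 0.50 (adjusted p = 0.176). For the change between days 8 and 55, C1QA was at 0.50 (SE 1.13, adjusted p = 0.765) with all arrays and was called at 0.77 (adjusted p = 0.0242) without them, and C3 was at -0.16 and -0.20 (adjusted p = 0.757 and 0.517).

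The treatments at day 8 asked whether the antibiotic, with or without the handling, changed expression 4 days later. None of the 5 members was called in any of the 6 comparisons. Of all genes, limma called 0.0212%, 0% and 0% in jejunum (T2 versus T1, T3 versus T1 and T3 versus T2) and 0.418%, 1.07% and 0.0283% in ileum. At an unadjusted p below 0.05 these comparisons held 2024, 963, 1097, 5366, 7054 and 2539 of the 28236 genes. The member nearest to a call was CFB. In ileum, CFB was 16.54, 16.31, 17.34 and 16.21 in T1 pools 9 to 12, 15.66, 15.58 and 15.77 in T2 pools 5 to 7, and 16.08, 15.77, 15.91 and 15.61 in T3 pools 1 to 4. Every T1 array was above every T2 and T3 array. The difference was -0.93 for T2 versus T1 (SE 0.22, adjusted p = 0.0637), groups that shared a slide, and -0.76 for T3 versus T1 (SE 0.21, adjusted p = 0.0601). Ileum T3 lay on another slide than T1 and T2, so treatment and slide cannot be told apart for T3 versus T1. Of 12 alternatives, 3 called the T2 difference, which were an intensity trend, array weights and 1 treatment effect for both tissues. For T3, 1 of 12 called it, the intensity trend. Of 23 runs that each left out 1 array, 2 called the T2 difference and 2 that of T3.

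In jejunum, CFB was 16.39, 15.82, 16.37 and 16.30 in T1, 15.34, 15.66, 15.56 and 15.81 in T2, and 15.78, 15.69, 15.51 and 15.60 in T3. The T1 arrays were again the highest, by 0.01 at the narrowest point. Jejunum T1 lay on another slide than T2 and T3, so treatment and slide cannot be told apart in the jejunum comparisons with T1. The difference was -0.62 for T2 versus T1 (SE 0.21, adjusted p = 0.35) and -0.57 for T3 versus T1 (SE 0.21, adjusted p = 1). Without the arrays that stood apart, T2 versus T1 was -0.70 in jejunum (adjusted p = 0.046), which was called, and -0.68 in ileum (adjusted p = 0.0734). T3 versus T2 differed by 0.05 in jejunum (95% interval -0.38 to 0.48) and by 0.17 in ileum (-0.30 to 0.63). The effects in ileum and jejunum were compared directly for T2 versus T1, T3 versus T1 and T3 versus T2, where 0.00708%, 0.0354% and 0.00708% of all genes were called. The CFB effects differed between the tissues by -0.30 (SE 0.30, adjusted p = 0.78), -0.19 (adjusted p = 0.868) and 0.12 (adjusted p = 1), and no member was called.

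**Figure D4:**
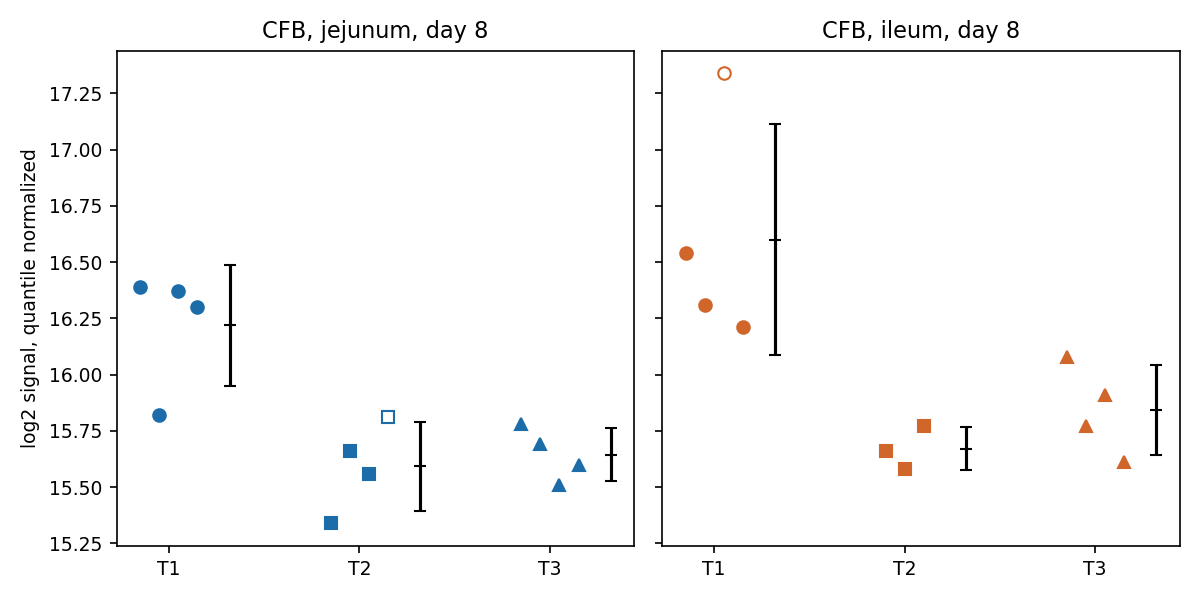
Log2 signal of CFB (vertical axis, quantile normalized) in each jejunum and ileum array of day 8 by treatment, with the mean and SD beside the points and open symbols for the arrays that stood apart. In both tissues the T1 arrays lay above all T2 and T3 arrays, and no difference was called with all arrays. Of the groups compared with T1, only ileum T2 shared its slide.

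The macrophage list moved with treatment at day 8 too. In ileum it summed to between 15.85 and 16.19 in T1, 15.30 and 15.51 in T2, and 15.34 and 15.76 in T3, with T1 above both. In jejunum it was between 15.67 and 16.56 in T1, 14.29 and 15.55 in T2, and 15.36 and 15.71 in T3. Its part in the CFB values was not tested. The epithelial list was between 19.85 and 20.26 in all 6 groups.

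In ileum at day 8, all T3 arrays were above all T2 arrays for C1QA and C3. These T3 arrays lay on another slide than the T2 arrays, so treatment and slide cannot be told apart. C1QA was 13.21, 12.54 and 13.65 in T2 and 14.77, 14.48, 14.54 and 14.71 in T3, while T1 lay between 13.02 and 14.85. T3 versus T2 differed by 1.49 (SE 1.19, adjusted p = 0.809). The SE of this comparison was estimated over all day 8 groups, and without jejunum T2 pool 8 and ileum T1 pool 11 the difference was 1.48 with an adjusted p of 0.0123. C3 was 14.50, 14.30 and 14.57 in T2 and 15.50, 15.13, 15.09 and 15.13 in T3, and differed by 0.75 (SE 0.42, adjusted p = 0.654), and by 0.75 (adjusted p = 0.0649) without those arrays. C3 in jejunum was 15.60, 15.64, 15.73 and 15.67 in T1 and 15.18, 14.89, 15.40 and 13.02 in T2, a difference of -1.04 (SE 0.39, adjusted p = 0.456), and -0.50 (adjusted p = 0.374) without pool 8. Jejunum T1 and T2 lay on separate slides as well. For C5 the 4 differences between T1 and the other treatments lay between -0.37 and -0.47, and for C7 between -0.01 and 0.43, none called.

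In blood at day 8, 3 of the 5 members passed the filter on low signal, and none of them was called. Of all genes, 0.00694%, 0.00347% and 0% were called for T2 versus T1, T3 versus T1 and T3 versus T2, where limma gave 3085, 2030 and 1157 of 28833 genes an unadjusted p below 0.05. C5 was 3.10, 2.47, 2.31 and 2.42 in T1, 3.27, 3.54, 3.32 and 2.93 in T2, and 3.30, 2.57, 3.14 and 2.89 in T3. T2 overlapped with the highest T1 array, and T2 versus T1 differed by 0.69 (SE 0.22, adjusted p = 0.278). Probe 1 of C5 was well above background in 9 of the 12 blood arrays and probe 2 in none, so these values lie close to background. C1QA and most C3 probes were not well above background in most blood arrays, and their gene values are not compared between treatments. C3 probe 2, which was in all 12, was 8.46, 6.44, 4.92 and 8.08 in T1, 9.64, 8.33, 9.28 and 8.83 in T2, and 10.05, 8.54, 9.12 and 8.63 in T3. The T3 arrays were above all T1 arrays and T2 overlapped with T1, and neither difference was called, at 2.11 for T3 (adjusted p = 0.454) and 2.05 for T2 (adjusted p = 0.27), each with an SE of 0.68. T1 lay on another slide than T2 and T3, so treatment and slide cannot be told apart in these comparisons. C7 was at 6.37 in T2 pool 5 and between 1.05 and 1.34 in the other 11 blood arrays, and CFB was between 1.04 and 2.51 in all 12.

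At day 55, an F test over the treatments called C3 in jejunum and C7 in ileum, 1 of 5 members in each tissue, where 10.2% and 12.6% of all genes were called. C3 in jejunum was 15.46, 15.26, 14.57 and 15.31 in T1, 15.01, 15.55 and 15.60 in T2, and 16.25, 16.04, 16.04 and 15.77 in T3. All T3 arrays were above all others, and they lay on another slide than T1 and T2, so treatment and slide cannot be told apart. T3 versus T1 differed by 0.88 (SE 0.20, 1.83-fold, F test adjusted p = 0.0194), and without the arrays that stood apart by 0.68 (adjusted p = 0.0546). The call was also lost without T3 pool 1. The 5 probes differed by 0.26, 2.40, 0.69, 0.55 and 0.47 between T3 and T1, and only probe 3 was called by itself (F test adjusted p = 0.019). C3 in ileum differed by 0.47 for T3 versus T1 (F test adjusted p = 0.281), with probes 3 and 4 called at 0.67 and 0.63.

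C7 in ileum was 6.80, 7.19, 7.27 and 5.65 in T1, 7.85, 7.50 and 7.35 in T2, and 8.46, 7.79, 7.87 and 7.50 in T3. The T1 arrays were the lowest and did not overlap with either group. T3 versus T1 differed by 1.18 (SE 0.32, 2.26-fold, F test adjusted p = 0.0409). T2 versus T1, on the same slide, differed by 0.84 (SE 0.34, adjusted p = 0.471), whereas T3 lay on a slide of its own, with fewer spots well above background. C7 lost its call with normexp background correction (0.83, F test adjusted p = 0.105) and with array weights. It also did so with each tissue alone and with a filter on probes well above background. C7 remained called in 13 of 22 runs that each left out 1 array, and lost its call without any of ileum T1 pools 9 and 12, T2 pools 5 and 6, T3 pools 1, 2 and 3, or jejunum T1 pool 9 or T2 pool 6. In jejunum, C7 was 7.85, 7.68, 7.93 and 8.06 in T1 and 9.07, 8.22, 8.56 and 9.10 in T3, a difference of 0.86 (SE 0.32, F test adjusted p = 0.192). CFB and C5 differed by at most 0.36 and 0.17 between any treatments at day 55, none called. C1QA in jejunum had a mean of 15.26 in T3 and 13.61 in T2, which includes pool 5 at 11.30, an array that stood apart. Its widest difference was 1.65 (F test adjusted p = 0.121), and it was called only without T2 pool 6, at 2.29 (F test adjusted p = 0.0278). Marker lists also differed between T1 and T3 at this age. In jejunum the smooth muscle list (4 genes) was between 12.65 and 13.02 in T1 and between 13.07 and 13.59 in T3, the T cell list between 13.21 and 13.72 and between 13.77 and 14.13, and the epithelial list between 20.22 and 20.37 and between 20.41 and 20.51. In ileum the smooth muscle list was between 12.65 and 13.17 in T1 and between 13.05 and 13.40 in T3. Their part in the C3 and C7 values was not tested.

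At day 176, the F test called none of the 5 members in either tissue, where 1.23% of all genes were called in jejunum and 0.0106% in ileum. With limma, 5425 and 1986 of 28236 genes had an unadjusted p below 0.05. The widest difference was that of C1QA in jejunum, at -4.38 for T2 versus T1 (SE 1.93, F test adjusted p = 0.326), which was -1.44 without the arrays that stood apart. CFB in jejunum was 16.41, 16.80, 16.39 and 16.59 in T1, 16.60, 17.28 and 17.31 in T2, and 16.27, 16.67, 16.29 and 16.68 in T3. The groups overlapped, and the adjusted p was 0.353. In ileum, C3 T2 versus T1 differed by 1.16 (SE 0.54) and C5 by 0.75 (SE 0.57), none called, and C5 T2 pool 7 was at 11.59 against 13.73 to 13.96 in the other 3 pools. Ileum T1 lay on another slide than T2 and T3, so treatment and slide cannot be told apart in the ileum comparisons with T1. In jejunum, T3 lay on another slide than T1 and T2.

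Blood was set against the intestine at day 8 with each array scaled to its 75th percentile. On that scale the median gene was higher in blood by 1.27 than in jejunum and by 1.43 than in ileum, and 83.1% and 83.7% of all genes were called. All 5 members were called lower in blood than in either tissue. CFB and C7 did not pass the filter in blood alone and entered this comparison through the intestinal groups, where they were higher. The filter thus favoured this direction for them, and their calls are no independent test of it. Since most probes of the members were not well above background in blood, most differences are given as bounds. CFB was not well above background in any of the 12 blood arrays, against 5.81 to 6.87 above the 75th percentile in jejunum and 6.05 to 8.45 in ileum. Its signal was at least 328-fold higher in jejunum and 389-fold higher in ileum than the bound for blood, which was set at the lowest signal well above background on each array. These bounds were not tested. The limma differences of -10.20 and -10.42 (adjusted p = 1.33e-28 and 1.69e-28) used the measured blood signals, none of them well above background.

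C1QA was well above background in 1 of 12 blood arrays, of T2. In T1, where no blood array was, it was at least 109-fold higher in jejunum and 99.2-fold higher in ileum, and in T3 at least 185-fold and 148-fold. C5 probe 2 was in no blood array, and was at least 6.44-fold higher in jejunum and 6.2-fold in ileum, whereas probe 1 was in 9 of 12 and lower in blood by -4.71 and -4.89. C7 was above background in T2 pool 5 of blood alone, at 0.92 against -1.41 to -0.74 in jejunum. That array was above all jejunum arrays. In T1, where C7 was not well above background in blood, it was at least 1.97-fold higher in jejunum and 1.12-fold in ileum, and in T3 at least 2.46-fold and 1.98-fold. Over all arrays, of which 11 gave only a bound in blood, the C7 difference of -2.86 (SE 0.37, adjusted p = 2.43e-08) turned to 0.17 (adjusted p = 0.239) with normexp background correction.

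The C3 probes gave different answers in blood. Probes 3 and 4 were not well above background in any blood array, and were at least 346-fold and 286-fold higher in jejunum and 232-fold and 193-fold in ileum. Probes 1 and 5 were above background in 1 and 4 blood arrays. Where no array of a treatment was, probe 1 was at least 472-fold higher in jejunum and 326-fold in ileum in T1, and 415-fold and 334-fold in T3, and probe 5 at least 431-fold and 322-fold in T3. Probe 2 was well above background in all 12 blood arrays, between -0.53 and 4.49 with a median of 3.22 on the scaled axis, against a median of 4.27 in jejunum and 3.41 in ileum. It differed by -0.83 from jejunum (SE 0.43, adjusted p = 0.0709) and by -0.14 from ileum (SE 0.44, adjusted p = 0.764). Within treatments, the means of probe 2 in blood, jejunum and ileum were 1.54, 4.11 and 3.02 in T1, 3.56, 2.73 and 2.14 in T2. In T3 blood was at 3.65 and ileum at 4.02, with jejunum above both. Blood was thus the lowest of the tissues in T1 and T3 and the highest in T2, where the jejunum mean includes pool 8, which stood apart, and these differences within treatments were not tested. The mean of the 5 C3 probes thus joins 4 that were lower in blood with 1 that was not called.

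**Figure D5:**
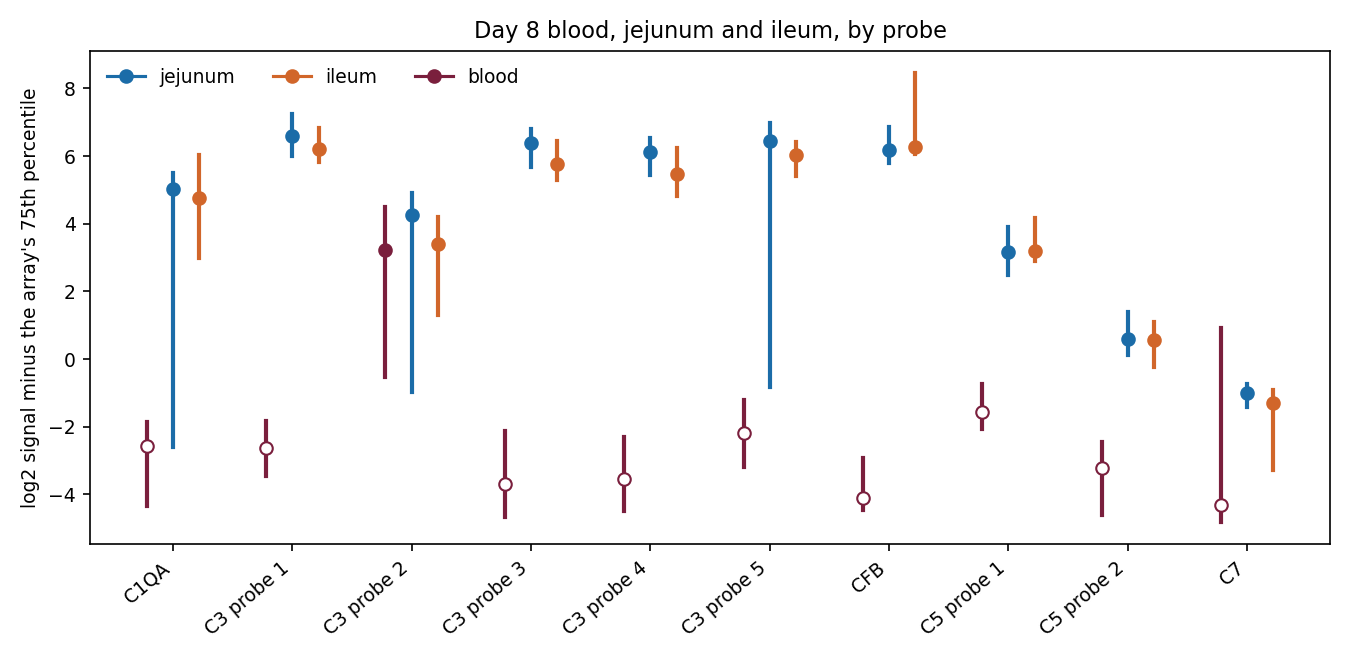
Log2 signal minus the 75th percentile of each array (vertical axis) for the 10 probes in blood, jejunum and ileum at day 8, with points for medians, lines from the lowest to the highest array and open points where at least 1 array was not well above background. C3 probe 2 had a blood median of 3.22, beside intestinal medians of 4.27 and 3.41, whereas the blood medians of the other 9 probes were all below -1.

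Of 44 other complement genes listed, 23 were on the array and 19 to 21 passed the filter in the intestinal comparisons. None was called between treatments or tissues at day 8. Between days 8 and 55, 11 of 20 were called in jejunum, of which 7 rose, and 9 of 20 in ileum, of which 6 rose, beside the 37.1% and 47.3% of all genes. C4BPA, an inhibitor of the classical pathway, rose by 3.30 in jejunum and 1.83 in ileum. C4A, a component of the classical and lectin pathways, rose by 1.27 and 2.02, and C2, which forms the convertase with it, by 1.02 and 1.32. C9, which builds the lytic pore after C7, rose by 1.87 in jejunum, as did C6, its partner in the same complex, by 1.39. C8G, a chain of the same complex, decreased by 1.93 and 3.40. The median over the list was 0.38 in jejunum and 0.08 in ileum, against 0.03 and 0.11 over all genes.

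Between ileum and jejunum at day 55, 11 of 21 of these genes were called, 4 higher and 7 lower in ileum, beside 41.0% of all genes. Terminal components were among the lower, with C6 at -0.84, C8G at -1.71 and C9 at -1.32, next to the regulators C4BPA at -1.23 and CD46 at -1.47. CD55, which speeds decay of the convertases, was higher at 2.89, MASP2, a protease of the lectin pathway, at 3.84, and CLU at 3.99. ITGB2, the shared chain of the complement receptors of leukocytes, was higher at 2.02. At day 176, 9 of 19 were called, beside 26.5% of all genes, and CD55, MASP2 and ITGB2 were again higher and C6, C9 and CD46 again lower. The median of the list was -0.06 at day 55 and 0.01 at day 176, against 0.04 and -0.05 over all genes.

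Under treatment at day 55 in jejunum, 4 of 21 were called, beside 10.2% of all genes, and all had their largest difference upward. Here too T3 lay on another slide than T1 and T2. These were C1S at 1.35, MASP1 at 1.33, SERPING1, the inhibitor of C1, at 1.14, and C2 at 0.79. None of the 21 was called in ileum. In blood against jejunum, 16 of 20 were called, 6 higher and 10 lower in blood, beside 83.1% of all genes. FCN1, a lectin of myeloid cells, was higher in blood by 6.10 and CD55 by 6.55, whereas C1S was lower by -5.70 and C6 by -5.52.

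The 5 members did not follow a shared pattern over the 18 group means of the intestine. Pearson's r between members was highest for C1QA and C3 at 0.608, and lowest for C1QA and CFB at -0.428. The means of C1QA and C3 include the arrays that stood apart, several of which were low for both. C5 had an r of 0.139 with CFB, -0.0146 with C3 and -0.406 with C7. Some of these groups share slides, and those of day 8 and of day 176 were each scanned in 1 session. Of 2223 genes with a symbol, those closest to C5 were TNFSF13B (r = 0.955), GZMH (0.95) and CCL28 (0.95). Those closest to CFB were C1QTNF3 (0.934), CXCL8 (0.858) and MLN (0.842), and those closest to C3 were PRDX6 (0.865), RPN2 (0.862) and DHRS4 (0.845). C7 was followed by AGPAT2 (0.905), PDXK (0.902) and CCS (0.899). C1QA was followed by ARF6 (0.954), LSM2 (0.953) and COPS4 (0.933), and its means include the arrays that stood apart.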

How the data were processed

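Total RNA of pools of 4 piglets was labelled with Cy3 and hybridised to Agilent porcine arrays. The authors deposited the scanner output of each array, and the intensity used was the processed signal, already corrected for background by the scanner software. Control spots and flagged spots were left out, values below 1 were set to 1 and log2 was taken. Arrays of a comparison were quantile normalized, or scaled to their 75th percentile for blood against intestine. Probes at or above the 20th percentile in all arrays of at least 1 group were kept, and probes of a gene were averaged. Groups were compared with limma 3.58.1 in R 4.3.3, which was tested on simulated data. Treatments at days 55 and 176 were compared with an F test. The table of the authors' processed values was not used. The number of arrays limits the precision. Transcript names were paired with symbols through RefSeq. All 5 members were named, and the 3 genes with the highest Pearson's r to each. Members and gene lists were chosen with earlier results of these data known. Alternatives were another normalization, normexp background correction of the median signal (offset 50), other filters, the brightest probe, an intensity trend, array weights, blocks for pool, sow set and slide, and leaving out each array. The study grouped the same piglets into pools of blood and of tissue, and arrays with the same pool number deviated together only weakly (mean r = 0.176 at day 8, 0.0743 at day 55 and 0.0496 at day 176, and 0.0567 between blood and tissue).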

Additional observations from a re-analysis of the deposited data

Results flagged for a closer look

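Independent tests for an array far from its group would flag about 1 in 20 groups by chance. The 5 members were measured on the same arrays, so their tests were not independent. Groups of 3 were not tested. Of 80 groups of 4 arrays tested over the 5 members, 10 held an array far from the other 3. On arrays that stood apart these were C1QA in jejunum day 8 T2 pool 8 (6.98 against 14.53 to 14.90), C1QA in jejunum day 176 T3 pool 4 (5.71 against 14.41 to 15.08), C3 in the same pool (13.24 against 15.19 to 15.37) and C7 in ileum day 8 T1 pool 11 (6.93 against 8.10 to 8.29). On other arrays they were C3 in ileum day 8 T3 pool 1 (15.50 against 15.09 to 15.13), CFB in jejunum day 8 T1 pool 10 (15.82 against 16.30 to 16.39) and C5 in ileum day 176 T2 pool 7 (11.59 against 13.73 to 13.96). In blood they were C7 in T2 pool 5 (6.37 against 1.16 to 1.34), CFB in T3 pool 2 (2.51 against 1.10 to 1.25) and CFB in T2 pool 8 (2.45 against 1.04 to 1.12). CFB was well above background in none of the blood arrays.

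The difference between ileum and jejunum changed between days 8 and 55 for CFB (-1.12, adjusted p = 2.88e-06 with limma) and for C5 (-0.79, adjusted p = 0.0431). These were tests of the change itself, and tissue at day 55 cannot be told apart from slide and scan session.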

How the results depend on the processing

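The rise of C5 between days 8 and 55 in both tissues, the fall of CFB in ileum and the change of its tissue difference were called under all alternatives run and in all runs that left out 1 array. The lower ileum levels of C5, C7 and CFB at day 55 were too, and that of C3 fell below the fold threshold with normexp and with the brightest probe. No alternative here could separate age, or tissue at day 55, from slide and scan session. Treatment calls at day 8 (0 of 30 member comparisons) became 2 with an intensity trend, 3 with array weights and 2 without the arrays that stood apart, and 0 to 2 when 1 array was left out. With 1 treatment effect for both tissues, a single estimate covers jejunum and ileum, and CFB was called for T2 versus T1 (-0.77, adjusted p = 0.0248). For ileum against jejunum at day 8 the count of 0 became 1 without the arrays that stood apart and 0 to 2 when 1 array was left out. Treatment calls at day 55 (2) became 1 with normexp, with probes well above background, with the brightest probe, with array weights and without the arrays that stood apart, 0 with each tissue alone, and 1 to 2 when 1 array was left out. Ileum against jejunum at day 176 (2) became 1 with normexp, 1 with 1 treatment effect for both tissues, 0 with slide as a block added to that model and 1 to 3 when 1 array was left out, and the C7 difference turned to 0.68 with that block. C5 was called there in addition with array weights, and in place of C7 without the arrays that stood apart. Calls between ages in jejunum (3) became 1 with array weights and 1 to 3 when 1 array was left out. Between days 55 and 176, C1QA also lost its call with normexp and with each tissue alone. C3 lost its call with the brightest probe and without the arrays that stood apart. With scaling to the 75th percentile, CFB was called in addition between days 8 and 55. In ileum between these ages, C7 lost its call with that scaling and with normexp. C1QA was called there with array weights, with each tissue alone and without the arrays that stood apart. CFB in ileum was called between days 55 and 176 with scaling to the 75th percentile. Tissue differences that changed with age (2) became 5 with scaling to the 75th percentile, which moved the median gene by 0.52 and -0.58, 1 with normexp, 4 with array weights and 1 to 3 when 1 array was left out. For C7 in blood, normexp gave 0.17 against jejunum and 0.54 against ileum. Leaving out 1 array kept the other counts, at 0 in blood, 0 for treatments at day 176, 0 for effects that differ between tissues, 4 between tissues at day 55, 3 between ages in ileum and 10 between blood and intestine.

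With the pool number as a replicate block, the counts of called members were 0, 4 and 2 for ileum against jejunum at days 8, 55 and 176 and 10 for blood against intestine, and with sow sets as a block 0, 2 and 0 for treatments, so the pairing changed no count. A block of sow sets by pool number between ages, chosen after the data were seen, gave 3 in jejunum, 3 in ileum and 2 for their difference, as without it. Signal over background limits the members in blood, where CFB, C3 probes 3 and 4 and C5 probe 2 were above background in 0 of 12 arrays, C7, C1QA and C3 probe 1 in 1, C3 probe 5 in 4 and C5 probe 1 in 9.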
